A study of Homo sapiens with 12 samples.

Results

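The genes described here encode the subunits of the mitochondrial respiratory chain and ATP synthase that are carried in the nucleus. They were found by name: the NDUF subunits of complex I, SDHA to SDHD of complex II, the UQCR subunits of complex III, the COX4 to COX8 subunits of complex IV and the ATP5 subunits of complex V. Of 38021 gene names, 81 fit these patterns and 76 of them had a summed count of at least 100 over the 12 libraries. The 5 left out were COX7B2 and COX6A2 with 0 counts, COX8C with 4, COX6B2 with 14 and COX7A1 with 18, while the lowest genes kept were ATP5L2 with 685, ATP5S with 3973 and NDUFV3 with 8946. Complex I had 36 of the 76 genes, complex II 4, complex III 8, complex IV 10 and complex V 16. NDUFA4 was counted with complex IV, where its protein sits. ATP5S and ATP5SL match by name only, since neither product is a subunit, and they stand outside the complexes below. The name patterns do not reach COX4I1, CYC1, CYCS or NDUFAB1, which are given further on.

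All 12 libraries came from 786O cells, a clear cell renal cell carcinoma line that has lost functional VHL, the ubiquitin ligase subunit that marks HIF2α for destruction. There were 4 groups of 3 biological replicates: 786O shControl, 786O shBMAL1, WT8 shControl and WT8 shBMAL1. WT8 cells are 786O cells that express wildtype VHL, and the 786O groups carry no added VHL. Every group carried a lentiviral pLKO.1 hairpin and was selected with puromycin, and shBMAL1 targets BMAL1, the circadian transcription factor listed as ARNTL. The labels do not separate hairpins, so an effect of a hairpin sequence and an effect of less BMAL1 cannot be told apart, and VHL status and line history cannot be told apart either. RNA was measured by stranded mRNA sequencing. The replicates are labelled biological without a word on separate cultures, so p-values measure the spread between these libraries.

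Complexes I to IV pass electrons from NADH and succinate to oxygen, all but complex II pump protons as they do so, and complex V lets the protons return through a membrane ring of c subunits, which turns the F1 head that makes ATP. Each complex but complex II mixes nuclear subunits, imported after synthesis in the cytosol, with subunits translated inside mitochondria. Clear cell renal tumours are known for stabilised HIF, which directs cells toward glycolysis and changes some cytochrome oxidase subunits.

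Totals ran from 33182005 to 36477484 counts, and the genes with at least 10 counts from 15127 to 15953 per library. ARNTL was the check of the knockdown: it fell from 12.1 ± 1.37 (SD, n = 3) to 3.94 ± 0.22 CPM (counts-per-million, on TMM-scaled library totals) in 786O, 3.08-fold, and from 9.24 ± 0.966 to 1.66 ± 0.236 CPM in WT8, 5.57-fold. VHL was at 18.8 ± 1.58 CPM in 786O shControl and 981 ± 56.5 CPM in WT8 shControl, and it fell to 647 ± 15.1 CPM in WT8 shBMAL1 (log2 change −0.60, SE 0.05). The renal marker PAX8 was present in every library, at 309 to 1376 CPM. Its mean was 313 CPM in 786O shControl and 1335 CPM in WT8 shControl. VIM (4481 against 1948 CPM) and CDH2 (530 against 106 CPM) were lower in WT8 shControl. The 9 renal carcinoma markers summed to 6183 to 6594 CPM in 786O shControl and 6404 to 6510 CPM in 786O shBMAL1. In WT8 the sums were 4550 to 4576 CPM with shControl and 3637 to 3774 CPM with shBMAL1. Each of 5 blood cell, 3 endothelial and 3 fat and muscle markers stayed under 1 CPM. Of 4 fibroblast markers COL1A2 and DCN stayed under 1 CPM, COL1A1 reached 9.69 and PDGFRB 5.76 CPM, and their sum was lower with shBMAL1 in both lines, at 10.3 to 12.6 against 4.74 to 5.97 CPM in 786O and 7.42 to 8.53 against 2.62 to 3.96 CPM in WT8. The other epithelial markers, CDH1 and EPCAM, summed to 8.46 to 10.3 and 6.35 to 7.63 CPM in 786O shControl and shBMAL1 and to under 1 CPM in WT8. In 786O the mean of EPCAM went from 9.23 to 5.54 CPM with shBMAL1 and that of CDH1 from 0.212 to 1.63 CPM. A list of 20 proliferation genes summed to 962 to 1011 CPM in WT8 shControl and to between 4519 and 5240.5 CPM in the other 3 groups. That difference moves with the 3 comparisons that use WT8 shControl, and the part of these lists in the results below was not tested.

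The 76 genes were abundant and short. Their median level was 93.5 CPM against 15.1 CPM for all genes tested, and their median exonic length was 830.5 nucleotides against 3149. Of the 76, 43 (56.6%) were under 1000 nucleotides, against 8.41% of all genes with a length. Compared per length, complex IV had the highest median level, 169 CPM per kb, followed by complex V with 137, complex II with 89.4, complex I with 79.0 and complex III with 78.4. Levels spread far wider within complexes than between them: in complex V they ran from 2.00 CPM per kb for ATP5L2 to 409 for ATP5B, the highest of all 76, and in complex I from 3.67 for NDUFV3 to 365 for NDUFB9. ATP5L2 is a copy of ATP5L, and UQCRH is nearly identical to UQCRHL, so reads of these pairs may be split between copies.

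In 786O the 76 genes together took 0.854% ± 0.0214 of the counts with shControl and 0.844% ± 0.00919 with shBMAL1 (SD, n = 3 each). In WT8 they took 0.924% ± 0.0245 and then 1.00% ± 0.0174. The WT8 shBMAL1 libraries, at 0.984 to 1.02%, lay above all others, and the 786O groups overlapped. Within the sum in 786O, ATP5B alone took 0.0938% ± 0.00569 of counts with shControl and 0.0433% ± 0.000994 with shBMAL1. Without ATP5B the sum was 0.742 to 0.774% with shControl and 0.789 to 0.807% with shBMAL1 in 786O, with no overlap, and 0.793 to 0.835% against 0.938 to 0.974% in WT8, again with no overlap. With 3 libraries a group, an exact permutation test of such a share cannot reach 0.05.

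**Figure D1:**
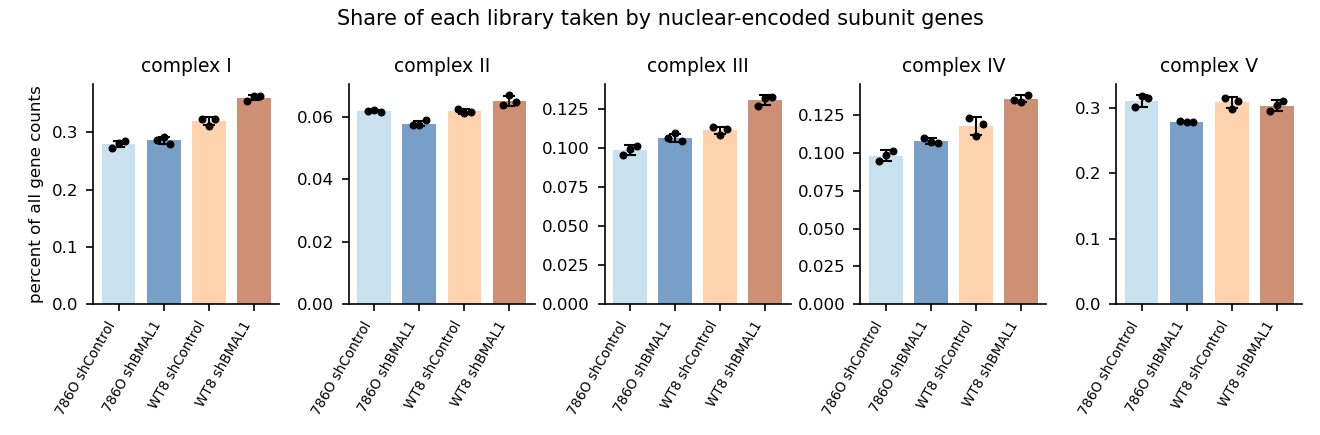
Percent of all gene counts in each library (y axis, from 0, a scale for each panel) taken by the nuclear subunit genes of complexes I to V, in the 4 groups. Bars are means, error bars SD and points the 3 libraries. In 786O complex V is lower with shBMAL1 (0.311 against 0.279%) while complexes III and IV are higher. Without ATP5B, which is not drawn apart, complex V in 786O goes from 0.217% with shControl to 0.236% with shBMAL1. In WT8 complex I goes from 0.320 to 0.361%.

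The first comparison asks what depletion of BMAL1 does to these genes in VHL-deficient 786O cells. Genes of the chain moved little and mostly upward, with 1 large exception, the fall of ATP5B. With shBMAL1, 32 of the 76 genes were higher and 9 lower at an adjusted p under 0.1 (edgeR quasi-likelihood test, Benjamini-Hochberg over 16838 genes), 41 in all or 53.9%, against 48.9% of all genes tested. Among all genes 24.5% were higher and 24.4% lower, against 42.1% and 11.8% of the 76. The median log2 change of the 76 was 0.08 against 0.00 for all genes, and the SD among them was 0.22 against 0.70. Only ATP5B of the 76 passed 2-fold, where 6.83% of all genes did. Here and in the later comparisons the 76 genes were set beside all genes without matching for level. Their median was 93.5 CPM against 15.1 CPM. The part of level in the SD, the share past 2-fold and the share called was not tested.

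ATP5B, now ATP5F1B, encodes the β subunit of F1, which carries the catalytic sites of ATP synthase (chromosome 12, 57031959 to 57039768, minus strand, GRCh37). It stood at 926, 1033 and 974 CPM in the 786O shControl libraries and at 443, 445 and 457 CPM with shBMAL1. In WT8 it stood at 1034, 988 and 1024 CPM with shControl and at 446, 442 and 421 CPM with shBMAL1. Every shBMAL1 library of both lines thus sat at 457 CPM or less and every shControl library at 926 CPM or more, with VHL or without. The fall was 2.18-fold in 786O (log2 change −1.12, SE 0.04, edgeR adjusted p = 1.57e-21) and 2.33-fold in WT8 (−1.22, SE 0.04, edgeR adjusted p = 1.17e-23). The difference between the falls was −0.09 (SE 0.06) and was not called (edgeR adjusted p = 0.202), though without 786O shControl replicate 2 it was, at −0.13. The small nucleolar RNA SNORD59A lies within ATP5B on the same strand.

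The other F1 genes did not share this fall. ATP5A1, which encodes the α subunit that alternates with β around the head, stood at 596, 572 and 576 CPM in 786O shControl and 550, 545 and 588 CPM in 786O shBMAL1. In WT8 it stood at 496, 488 and 480 CPM with shControl and at 528, 535 and 526 CPM with shBMAL1. The groups overlapped in 786O, and in WT8 the shBMAL1 libraries were the higher ones. Over ATP5A1, ATP5C1, ATP5D and ATP5E, the α, γ, δ and ε subunits, none was called lower in either line (1 in WT8 with upper-quartile factors), and the median log2 change was 0.08 in 786O and 0.18 in WT8.

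**Figure D2:**
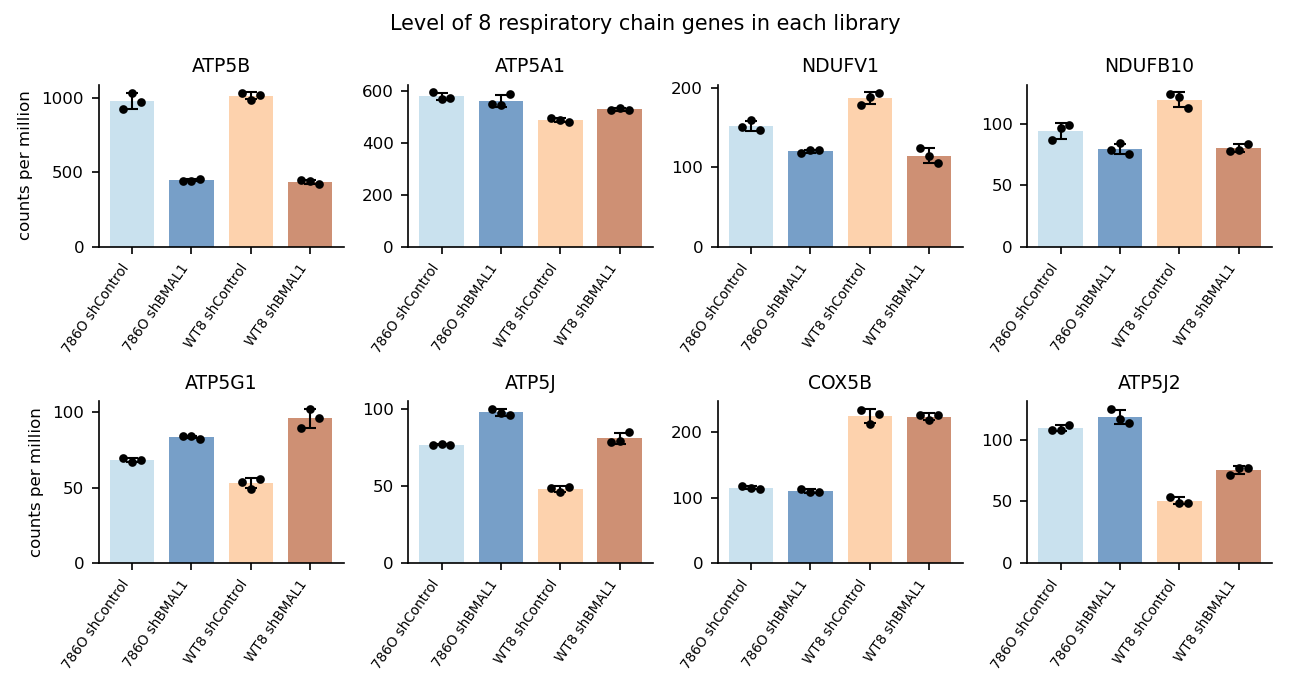
Level (y axis, counts-per-million, from 0, a scale for each panel) of 8 genes in the 4 groups; bars are means, error bars SD and points the 3 libraries. ATP5B sits at 457 or less in all 6 shBMAL1 libraries and at 926 or more in all 6 shControl libraries, ATP5A1 does not, NDUFV1 and NDUFB10 are lower and ATP5G1 and ATP5J higher with shBMAL1 in both lines, and COX5B and ATP5J2 separate the lines.

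The other falls in 786O were small. NDUFV1, the complex I core subunit that binds NADH and flavin, stood at 150, 159 and 147 CPM with shControl and 118, 122 and 121 CPM with shBMAL1 (log2 change −0.34, SE 0.05, edgeR adjusted p = 1.23e-06). NDUFB10, an accessory subunit of the complex I membrane arm, went from 94.4 ± 6.78 to 79.6 ± 4.39 CPM (log2 −0.25, edgeR adjusted p = 0.00039). NDUFB8, another membrane arm subunit, whose gene overlaps HIF1AN on the opposite strand, fell by 0.26 on the log2 scale (SE 0.05). SDHA, the flavoprotein that oxidises succinate and the only complex II gene called in 786O, fell from 389 ± 7.03 to 333 ± 2.25 CPM (log2 −0.23, SE 0.04).

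The rises in 786O were of like size. NDUFB1, a small membrane arm subunit of complex I, stood at 14.6, 14.6 and 16.4 CPM with shControl and 20.9, 20.7 and 21.4 CPM with shBMAL1, 1.38-fold (log2 0.47, SE 0.09). COX7B, a small complex IV subunit, went from 64.4 ± 3.51 to 86.9 ± 5.36 CPM (log2 0.43, SE 0.06). ATP5J, which encodes the F6 coupling factor of the complex V peripheral stalk, stood at 77.0, 77.4 and 76.9 CPM with shControl and 100.4, 97.7 and 96.0 CPM with shBMAL1 (log2 0.35, SE 0.05, edgeR adjusted p = 4.36e-07). ATP5J overlaps GABPA on the opposite strand. ATP5SL, a name match that encodes a complex I assembly factor, rose by a log2 change of 0.36 (SE 0.06). By complex, 14 genes of complex I were higher and 7 lower, and 9 of complex V were higher and 1 lower. In complex III 3 genes and in complex IV 5 genes were called, all higher, and the 1 called in complex II was lower.

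The second comparison asks the same in WT8 cells, where VHL is restored. The same upward lean was present and was larger, and ATP5B again stood apart. With shBMAL1, 54 of the 76 genes were higher and 9 lower, 63 in all or 82.9%, against 69.8% of all genes (32.9% higher, 36.9% lower). The median log2 change was 0.26 against −0.04 for all genes, with an SD among the genes of 0.34 against 1.07. Again only ATP5B passed 2-fold, against 20.5% of all genes. These values stand beside a rise of all 20 proliferation genes in the same comparison, by a median log2 change of 2.30, while in 786O 6 of the 20 were higher and 3 lower with a median of 0.01. The part of that rise in the WT8 values was not tested, and in bulk RNA a shift in the cells present and a shift in RNA per cell cannot be told apart.

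Complex V held both the top rises and the deepest fall. ATP5G1, one of the genes for the c subunit of the membrane ring, stood at 54.1, 49.2 and 56.0 CPM with shControl and 89.6, 102 and 96.0 CPM with shBMAL1, 1.81-fold with no overlap (log2 0.85, SE 0.05, edgeR adjusted p = 4.93e-16). The other c subunit genes, ATP5G2 and ATP5G3, which encode the same mature protein, rose by log2 changes of 0.62 and 0.47. ATP5J stood at 49.1, 46.3 and 49.8 CPM with shControl and 79.0, 79.3 and 85.3 CPM with shBMAL1 (log2 0.75, SE 0.05). Of the 16 complex V genes 12 were higher and 2 lower, with a median log2 change of 0.35, the highest of the 5 complexes.

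In complex I, 26 of 36 genes were higher and 7 lower, with a median of 0.26. NDUFB1 rose from 21.1 ± 1.58 to 35.0 ± 5.75 CPM (log2 0.73, SE 0.09), NDUFB3 by 0.64 and NDUFS5 by 0.62 on the log2 scale, all 3 accessory subunits. NDUFV1 stood at 179, 189 and 193 CPM with shControl and 125, 115 and 105 CPM with shBMAL1, and fell 1.63-fold (log2 −0.70, SE 0.05, edgeR adjusted p = 1.57e-14). NDUFB10 stood at 124, 122 and 113 CPM with shControl and 77.8, 78.8 and 84.0 CPM with shBMAL1 (log2 −0.58, SE 0.05). NDUFC2, which shares exons with the read-through gene NDUFC2-KCTD14, fell by 0.24 (SE 0.06). The 7 catalytic core genes had a median of 0.14 and the 29 accessory genes 0.29.

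Complexes II, III and IV held no gene called lower with shBMAL1 in WT8, though with upper-quartile factors 2 of complex II and 1 of complex IV were, and with DESeq2 1 of complex II. In complex II the iron-sulfur subunit SDHB rose from 104 ± 9.02 to 143 ± 5.81 CPM (log2 0.46, SE 0.05) and the membrane anchor SDHD by 0.24. In complex III 5 of 8 genes were higher, led by UQCRQ, a small subunit that went from 92.7 ± 9.23 to 134 ± 8.22 CPM (log2 0.53), and UQCRB (log2 0.47). In complex IV 7 of 10 genes were higher, led by COX7C (log2 0.57) and COX7B (log2 0.52), both small structural subunits.

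**Figure D3:**
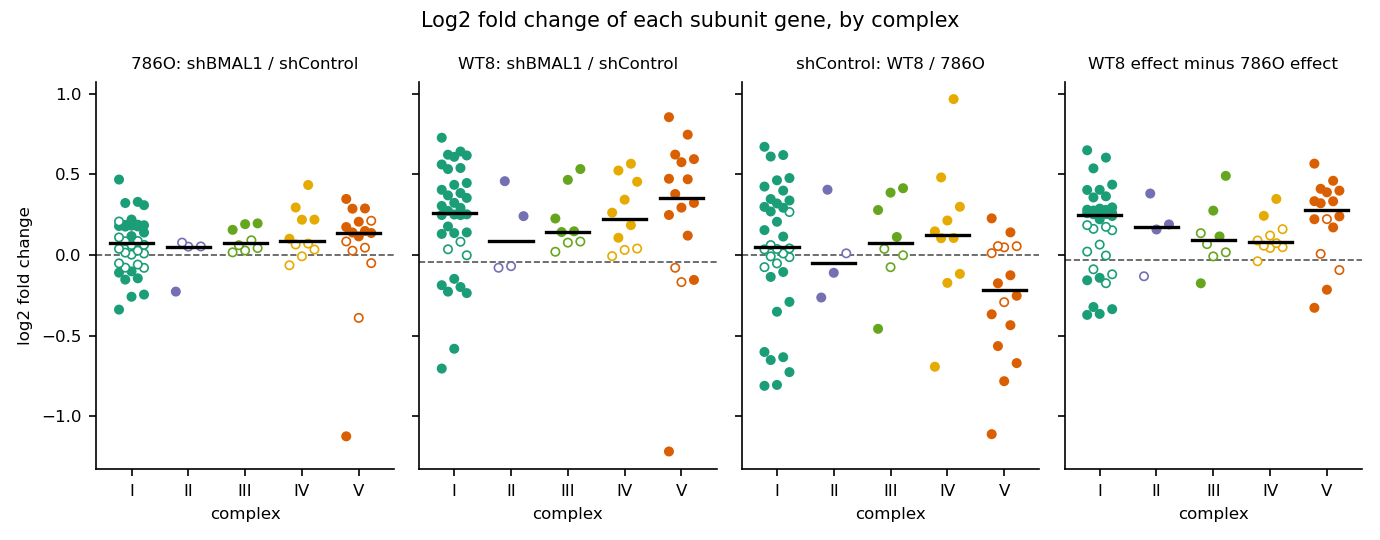
Log2 fold change (y axis) of each subunit gene by complex (x axis) in the 2 knockdown comparisons, in WT8 against 786O with shControl, and in the difference between the knockdown effects. Filled points passed an adjusted p under 0.1, black bars are medians of a complex and dashed lines the median of all genes tested; the complex V medians are 0.14, 0.35, −0.21 and 0.28, and the lowest point in both knockdown panels is ATP5B.

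Since the lines share no library, their knockdown effects can be set against each other. Of the 76 genes, 27 were higher with shBMAL1 in both lines, 35.5%, against 12.4% of all genes, and 3 were lower in both, ATP5B, NDUFV1 and NDUFB10, 3.95% against 13.6%. Another 7 were called in opposite directions, 9.21% against 12.1%: NDUFA8, NDUFA9, NDUFB8, NDUFB9 and NDUFS1 were lower in 786O and higher in WT8, and NDUFS7 and ATP5I the reverse. Without 786O shControl replicate 3, 786O shBMAL1 replicate 2 or 786O shBMAL1 replicate 3 these 7 became 4. The changes in both lines had the same sign in 60 of 76 genes (78.9%), against 59.2% of all genes, and Pearson r across the genes was 0.73 (Spearman rho 0.58). Without ATP5B r was 0.63, and over all genes tested it was 0.18. These are correlations across genes, which are not independent replicates, and all points of a line come from the same 6 libraries.

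**Figure D4:**
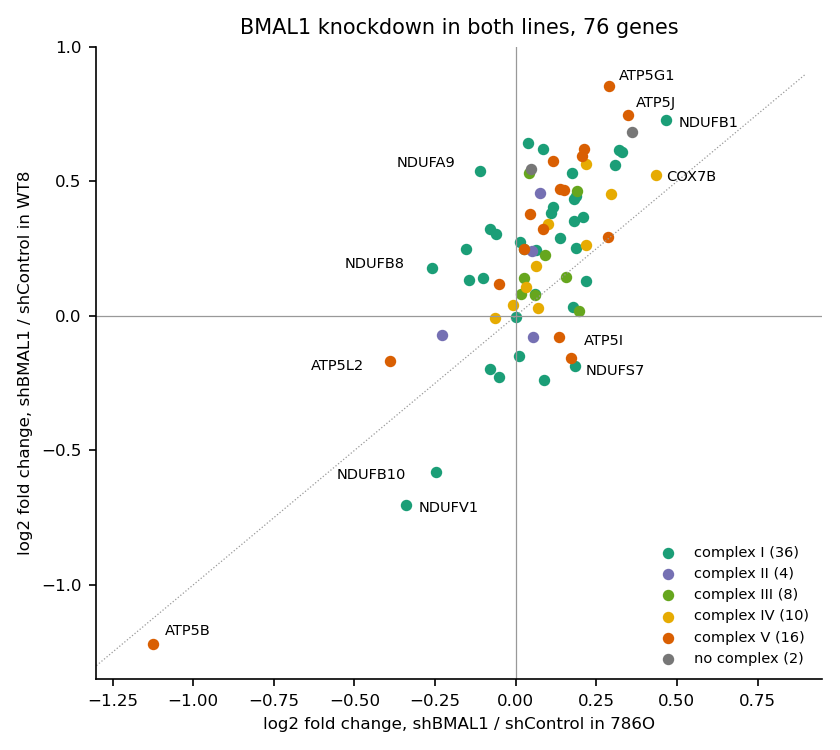
Log2 fold change with shBMAL1 in 786O (x axis) and in WT8 (y axis) of the 76 genes, coloured by complex, with equal change on the dotted line. Most genes lie above 0 on both axes and above the dotted line, NDUFV1 and NDUFB10 lie low on both, and ATP5B stands alone at −1.12 and −1.22.

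The third comparison sets the knockdown effect in WT8 against that in 786O. The effect differed for 50 of the 76 genes, 65.8%, against 56% of all genes, and was higher in WT8 for 41 and lower for 9, where all genes were divided 27.4% and 28.5%. The median difference was 0.20 against −0.03 for all genes, and 0 of the 76 differed by over 2-fold, against 17.4%. NDUFA9, an accessory subunit at the junction of the complex I arms, stood at 86.1 to 93.6 CPM in 786O shControl and 80.2 to 88.1 CPM in 786O shBMAL1. In WT8 it stood at 92.3, 93.0 and 91.4 CPM with shControl and 131, 134 and 138 CPM with shBMAL1, so that 3 of the 4 groups lay close and WT8 shBMAL1 apart. Its effects differed by a log2 value of 0.65 (SE 0.07, edgeR adjusted p = 4.65e-10). NDUFS7, a core subunit with an iron-sulfur cluster, changed by a log2 value of 0.18 in 786O and −0.19 in WT8, and NDUFB8 by −0.26 and 0.18. All 20 proliferation genes also had the higher effect in WT8, by a median log2 value of 2.14, and their part was not tested. This comparison and the WT8 knockdown share their libraries and are not separate evidence.

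The fourth comparison asks how WT8 differs from 786O without knockdown. Here the genes did not lean one way: 31 were higher in WT8 and 26 lower, 57 in all, against 79.5% of all genes (39.3% higher, 40.2% lower), with a median log2 change of 0.04. All 20 proliferation genes were lower in WT8 in this comparison, by a median log2 change of −2.23, and their part was not tested. With upper-quartile factors or library totals alone, which shifted the median of all genes by 0.11 and 0.12, the split was 44 higher and 18 lower. The SD among the genes was 0.40, against 1.99 for all genes, and only ATP5J2 passed 2-fold, against 32.1%. Complex V leaned down, with 2 higher and 9 lower and a median of −0.21 (5 and 7 with upper-quartile factors), while complex I had 16 higher and 10 lower, complex II 1 and 2 (2 and 1 with upper-quartile factors), complex III 4 and 1, and complex IV 7 and 3.

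COX5B, a zinc-binding subunit of complex IV, was the highest riser. It stood at 117, 114 and 114 CPM in 786O shControl and 233, 212 and 228 CPM in WT8 shControl, 1.95-fold (log2 0.97, SE 0.04, edgeR adjusted p = 1.96e-20). With shBMAL1 it stood at 113, 108 and 109 CPM in 786O and 226, 218 and 226 CPM in WT8, so the WT8 libraries lay above the 786O libraries with either hairpin, and it was called in neither knockdown. The core complex I subunits NDUFV2 and NDUFS7 followed with log2 changes of 0.67 and 0.62. Of the 3 genes that fell with shBMAL1 in both lines, NDUFV1 and NDUFB10 were higher in WT8 than in 786O by 0.30 and 0.35, and ATP5B was not called (log2 0.05, edgeR adjusted p = 0.242; 0.17 and called with upper-quartile factors). This comparison shares the shControl libraries with the knockdowns.

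ATP5J2, which encodes the f subunit of the complex V membrane part, was the lowest. It stood at 108, 108 and 112 CPM in 786O shControl and 53.9, 49.1 and 48.8 CPM in WT8 shControl, 2.16-fold lower (log2 −1.11, SE 0.05, edgeR adjusted p = 3.57e-20). It also stood at 125, 117 and 114 CPM in 786O shBMAL1 and 71.7, 77.0 and 77.5 CPM in WT8 shBMAL1, lower in WT8 in each case. ATP5J2 shares exons with a read-through into PTCD1. NDUFA8 fell by 0.81, NDUFB3 by 0.81 and ATP5G3 by 0.78 on the log2 scale.

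On some chromosomes the differences between the lines lay on the same side as those of other genes there, an arrangement looked at only after the values were seen. All 4 genes on chromosome 7, ATP5J2, NDUFA5, NDUFA4 and NDUFB2, were lower in WT8, by log2 changes of −1.11, −0.73, −0.69 and −0.60, where the median of the 694 genes tested on that chromosome was −0.58. On chromosome 21 ATP5J, NDUFV3 and ATP5O were lower by −0.67, −0.65 and −0.44, against a median of −0.25 over 139 genes. The 11 genes on chromosome 19, 7 of them higher and 1 lower, had a median of 0.30 against 0.29 over 1049 genes. Other genes went against their chromosome. COX5B rose where chromosome 2 had a median of −0.23, NDUFV2 (log2 0.67) where chromosome 18 had −0.32, and NDUFC1 (log2 0.40) where chromosome 4 had −0.33. The 6 genes on chromosome 5 had a median of 0.19 against −0.09. Subtracting each chromosome's median took the SD among the 76 genes from 0.40 to 0.33 and the median of complex V from −0.21 to −0.15, while in the knockdown of WT8 the SD went from 0.34 to 0.35.

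**Figure D5:**
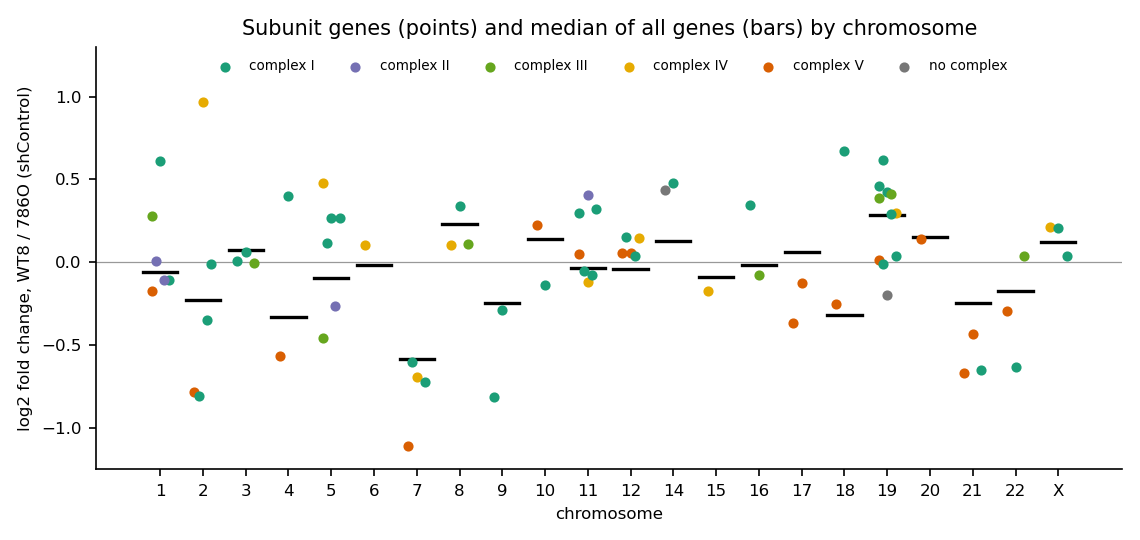
Log2 fold change of WT8 over 786O, both with shControl (y axis), for the 76 genes (points, coloured by complex) by chromosome (x axis), with the median of all genes tested on each chromosome as a bar. The 4 points on chromosome 7 and the 3 on chromosome 21 all lie below 0, and COX5B at 0.97 lies far above the bar of chromosome 2.

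Promoters are shown for 4 members called in the same direction in both lines, 2 that rose and 2 that fell, picked after their values were seen. In 786O ATP5B, NDUFB1, COX7B and ATP5SL moved further than these 4, and their promoters are not shown. For ATP5B no promoter was matched. RefSeq promoters of 300 bases (250 before and 50 after the start, GRCh38.p14) were matched for 62 of the 76 genes, with 74 promoters, as some genes have several. Each is written 5′ to 3′ on the strand of the gene, with capitals for an E-box CACGTG, the motif bound by BMAL1 with CLOCK, for GCGCATGC, part of the site of NRF1, and for CCGGAAG, an ETS site of the kind bound by GABPA. ATP5G1, at chr17:48892537-48892836 on the plus strand, and ATP5J, at chr21:25735005-25735304 on the minus strand, rose in both lines. NDUFV1, at chr11:67606686-67606985, and NDUFB10, at chr16:1959288-1959587, both on the plus strand, fell in both.
ATP5G1: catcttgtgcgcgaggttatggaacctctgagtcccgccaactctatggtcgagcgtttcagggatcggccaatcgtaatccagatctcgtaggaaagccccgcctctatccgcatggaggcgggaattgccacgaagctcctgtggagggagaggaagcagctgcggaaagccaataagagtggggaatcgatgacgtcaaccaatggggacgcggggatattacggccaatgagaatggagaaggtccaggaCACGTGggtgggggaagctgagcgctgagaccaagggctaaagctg
ATP5J: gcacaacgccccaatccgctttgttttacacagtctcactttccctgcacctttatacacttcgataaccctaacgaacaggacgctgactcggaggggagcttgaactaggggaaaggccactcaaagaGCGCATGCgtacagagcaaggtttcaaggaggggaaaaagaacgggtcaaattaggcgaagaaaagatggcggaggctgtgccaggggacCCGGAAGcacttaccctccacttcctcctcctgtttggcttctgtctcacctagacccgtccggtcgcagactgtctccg
NDUFV1: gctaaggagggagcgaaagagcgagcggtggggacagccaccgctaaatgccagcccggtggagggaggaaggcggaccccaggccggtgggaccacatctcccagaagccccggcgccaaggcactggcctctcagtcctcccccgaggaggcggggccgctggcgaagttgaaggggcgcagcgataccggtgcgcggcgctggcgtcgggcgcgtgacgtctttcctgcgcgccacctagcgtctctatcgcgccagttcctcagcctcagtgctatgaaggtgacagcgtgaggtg
NDUFB10: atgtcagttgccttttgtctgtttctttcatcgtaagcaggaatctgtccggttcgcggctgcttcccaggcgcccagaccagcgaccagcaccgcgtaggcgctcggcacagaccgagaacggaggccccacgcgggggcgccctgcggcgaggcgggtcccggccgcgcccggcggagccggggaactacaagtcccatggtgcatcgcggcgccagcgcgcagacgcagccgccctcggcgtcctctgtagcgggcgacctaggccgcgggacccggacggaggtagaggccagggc

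The ATP5G1 window held an E-box, the ATP5J window shown held GCGCATGC and CCGGAAG, and the windows of NDUFV1 and NDUFB10 held none of these letters on either strand. A second ATP5J promoter, at chr21:25734855-25735154, held CCGGAAG but not GCGCATGC. Of the 74 member promoters 20.3% held GCGCATGC, against 3.05% of 35116 promoters and 4.47% of the 17624 promoters of genes tested. CCGGAAG was in 27.0% against 10.3% and 15.5%. CACGTG was in 9.46% against 7.26% and 9.15%. ACGTG, which CACGTG contains, was in 25.7% against 21.4% and 24.9%. The core bound by HIF is ACGTG or GCGTG, and GCGTG was not counted, so these shares do not cover all HIF core matches. The 7 genes with an E-box were ATP5F1, ATP5I, ATP5G1, NDUFS7, UQCR11, NDUFA11 and NDUFA7, and their median log2 change was 0.18 in 786O and 0.25 in WT8, against 0.07 and 0.27 for the matched genes without one. NDUFS7, UQCR11, NDUFA11 and NDUFA7 lie on chromosome 19, where the 1049 genes tested had a median of 0.09 with shBMAL1 in 786O. Of the 11 members there 9 were higher in that comparison, and the part of the chromosome was not tested. A match of letters is not a bound site.

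The rest of the oxidative phosphorylation system was taken from lists of its genes, whose counts of calls stand against 48.9% of all genes called with shBMAL1 in 786O, 69.8% in WT8 and 79.5% in WT8 against 786O. Among 9 other subunits, cytochrome c genes and related genes not reached by the name patterns, 1 was higher and 2 lower with shBMAL1 in 786O and 5 and 2 in WT8. On the log2 scale CYCS, the electron carrier cytochrome c, rose by 0.25 in 786O and 0.56 in WT8, COX4I1 of complex IV and CYC1 of complex III rose by 0.34 and 0.29 in WT8, and ATPIF1, the inhibitor of ATP synthase running in reverse, fell by 0.27 and 0.53. In WT8 against 786O 5 of these 9 were higher and 1 lower.

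The 13 mitochondrially encoded subunits took 3.00% ± 0.223, 3.29% ± 0.297, 4.07% ± 0.201 and 3.76% ± 0.411 of counts in 786O shControl, 786O shBMAL1, WT8 shControl and WT8 shBMAL1. With shBMAL1 3 were called in 786O, all higher and led by COX3 (log2 0.36). In WT8 5 were called, all lower and led by ND3 (log2 −0.82), where 52 of the 73 nuclear genes other than ATP5S, ATP5SL and ATP5L2 were higher. In WT8 against 786O 8 were called, all higher, with ND3 at 0.99.

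Assembly factors help to build the complexes but do not stay in them. Of 16 complex I factors 8 were called with shBMAL1 in 786O (50% against 48.9% of all genes) and 12 in WT8 (75% against 69.8%). Of these 6 were higher and 2 lower in 786O, led by NDUFAF1 (log2 0.59), and 11 and 1 in WT8, led by C17orf89 (log2 1.11), which was lower in WT8 than in 786O by −1.24. Of 23 complex IV factors 4 were higher and 7 lower in 786O, with COX20 at 0.44 and SURF1 at −0.44, and 13 and 7 in WT8, with COX20 at 0.92 and COA5 at −0.89. Of the 6 complex III factors 2 were called in 786O, both higher (1 more lower with upper-quartile factors), and 3 were higher and 2 lower in WT8, where UQCC2 rose by 0.91 and TTC19 fell by 0.75 on the log2 scale. Of the 4 complex II factors 2 were higher in 786O and 3 in WT8, and of the 4 complex V factors 1 was higher in 786O and 1 lower in WT8. In WT8 against 786O the factor counts were 6 and 5 for complex I, 2 and 2 for complex II, 3 and 3 for complex III, 9 and 9 for complex IV, and 3 and 1 for complex V, with SDHAF3 at −1.69, UQCC1 at 1.19, COA5 at 1.68 and ATPAF2 at 0.93.

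Of 18 regulators of mitochondrial biogenesis, 50% were called in 786O and 72.2% in WT8, close to the 48.9% and 69.8% of all genes, and 88.9% in WT8 against 786O (79.5% of all genes). Of them 7 were higher and 2 lower with shBMAL1 in 786O, 8 and 5 in WT8, and 11 and 5 in WT8 against 786O. PPARGC1A, the coactivator PGC-1α, rose 2.33-fold in 786O from 0.525, 0.572 and 0.938 CPM to 1.41, 1.64 and 1.72 CPM, a low level. NRF1, the factor whose site part is given above, rose by 0.32 on the log2 scale with shBMAL1 in WT8 and was lower in WT8 than in 786O by −0.43. Of 9 mitochondrial genes known to respond to HIF, 3 were called with shBMAL1 in 786O, all lower, and 3 were higher and 5 lower both with shBMAL1 in WT8 and in WT8 against 786O. LONP1, the matrix protease, fell by 0.56 in 786O and 0.49 in WT8 with shBMAL1 on that scale. PDK1, the kinase that blocks pyruvate entry to the citric acid cycle, was lower in WT8 than in 786O by −1.44. Other genes of this list went the other way between the lines, MXI1 by 0.33 and NDUFA4L2 by 2.26. NDUFA4L2 was at a low level, 0.287 ± 0.173 CPM in 786O shControl and 1.38 ± 0.226 CPM in WT8 shControl.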

How the data were processed

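RNA was sequenced from 12 libraries, 3 for each of 786O shControl, 786O shBMAL1, WT8 shControl and WT8 shBMAL1. The authors deposited 1 table of estimated counts per gene, not normalised, in which a stand-in of 0.028 replaces 0 (47.0% of values) and 5.67% of the other values are not whole. The study's methods name GRCh37 and the SeqMan NGen aligner, while the submitters' processing notes name hg38, STAR and DESeq2, and the table has no coordinates, so which of them made the table is not given. Annotation, use of strand and treatment of reads with several matches are not given in the sources used here. A count of 2 was more frequent than a count of 1 (14754 against 11117 values), so the counts may hold both mates.

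The design assumed plain counts. The estimated counts were rounded, scaled by TMM (factors 0.948 to 1.04) and fitted with edgeR 4.0.16 in R 4.3.3 (filterByExpr, robust quasi-likelihood test, 1 mean per group over all 12 libraries). Genes were called at an adjusted p under 0.1 (Benjamini-Hochberg over 16838 genes), the study's limit. All 76 members passed the filter. The biological coefficient of variation was 5.70%. Replicates of a group differed by more than counting error (chi-square per gene 4.51 to 12.6). Tests were run on simulated counts with the same dispersion for every gene and far fewer genes changed than were called here. Such a run cannot check the scaling or the error rate under changes as broad as these. Genes of the lists, some with the largest changes there, and members singled out after their values were seen were named. Beside these, named genes were by rule the 4 largest rises and falls per comparison among members with a mean count of at least 50. Values of 1 gene that this rule names and of 1 marker gene are not reported here. Members and lists were chosen with earlier results of these data known. Names were matched to GENCODE 44 on GRCh37 for position and length. DESeq2 1.42.0, other scalings, filters, thresholds and left-out libraries were tried as alternatives. Intervals beyond the standard errors (SE) were not computed.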

Additional observations from a re-analysis of the deposited data

Results flagged for a closer look

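In 12 genes the knockdown effect differed between the lines by the interaction term of the edgeR fit, chosen because they headed that comparison or were called in opposite directions. The effect, as a log2 difference of WT8 minus 786O, was higher in WT8 for NDUFA9 (0.65), NDUFB3 (0.60), ATP5G1 (0.57), NDUFS5 (0.54), NDUFB8 (0.44), NDUFA8 (0.40), NDUFB9 (0.28) and NDUFS1 (0.24). It was lower in WT8 for NDUFS7 (−0.37), NDUFV1 (−0.37), NDUFB10 (−0.34) and ATP5I (−0.33). For NDUFV1 and NDUFB10 both lines fell and WT8 fell further, while for NDUFS7 and ATP5I 786O was higher with shBMAL1 and WT8 lower. With the trend over transcript length removed, the differences of NDUFS1 and ATP5I became 0.07 and −0.17 and were no longer called. All 12 stand beside the difference in proliferation genes between WT8 shControl and the other groups, whose part was not tested.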

How the results depend on the processing

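Asking for a change over 1.5-fold (edgeR's glmTreat) left 1 member called in 786O, 6 in WT8, 9 between the lines and 0 in the difference of the knockdown effects (0 at an unadjusted p under 0.05), and 0, 1 and 0 for members higher in both lines, lower in both and opposite, against 41, 63, 57 and 50 called for any change. The 7 opposite members became 4 with library totals alone, 4 with the length trend removed and 3 without mitochondrially encoded genes. With upper-quartile factors the median log2 change was 0.18 in WT8, 0.15 between the lines and 0.14 in the difference, and with no factors 0.15 between the lines. A stricter filter (50 counts in 3 libraries) gave 0.21 in WT8 and 0.083 between the lines, and subtracting chromosome medians, added after the data were seen, gave 0.31 and −0.010. The cause was not tested. Without mitochondrially encoded genes the shares were 0.881 and 0.872% in 786O with shControl and shBMAL1 and 0.963 and 1.04% in WT8.

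With each library left out in turn, calls ran from 32 to 42 in 786O, 59 to 63 in WT8, 51 to 58 between the lines and 44 to 52 in the difference, and medians from 0.07 to 0.10, 0.23 to 0.30, 0.01 to 0.07 and 0.18 to 0.23. Members higher in both lines ran from 21 to 28, lower in both from 3 to 4 and opposite from 4 to 7. DESeq2 called 41, 63, 55 and 47.

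The replicate numbers did not pair the samples (correlations of same-numbered deviations from −0.05 to 0.05). With the replicate number as a block, 41, 62, 57 and 47 members were called. No rows named after pseudogene copies of members were in the table, so adding such rows was not run. Adding the counts of the near-identical UQCRHL to UQCRH was run, and 41, 64, 57 and 51 members were called.

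Of 94 single-gene values tried under alternatives other than the 1.5-fold limit, ATP5I and NDUFS1 lost the called difference with the length trend removed, and ATP5B gained one in the difference of the effects with upper-quartile factors (−0.16), the stricter filter (−0.13) and without 786O shControl replicate 2, and one between the lines in the same settings (0.17, 0.10 and 0.09) and with no factors (0.17). None of the 94 reversed. Library depth was alike, so depth limits mainly the lowest members, such as ATP5L2.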
